A study of Homo sapiens with 104 samples.

Results

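DNA glycosylases find a damaged or misplaced base and cut it from its sugar, which opens base excision repair. The 8 glycosylase genes MUTYH, NTHL1, OGG1, UNG, TDG, SMUG1, MBD4 and NEIL1 were followed here, that is, the glycosylases apart from MPG, the enzyme that removes methylated purines, and apart from NEIL2 and NEIL3. They were taken by name, and every probe set whose only symbol in the platform annotation was one of them was used. Of the 8 genes, 7 had such a probe set, among 19775 genes in all. MUTYH, NTHL1 and UNG had 1 probe set each, TDG had 2, OGG1 and SMUG1 had 3 each and MBD4 had 4, together 15, and 14 of these passed a filter that left out the 30% of probe sets with the lowest mean level. The SMUG1 probe set 234708_at did not pass it. The 2 NEIL1 probe sets, 219396_s_at and 241477_at, carry the symbol of the microRNA gene MIR631 as well, so no NEIL1 value is given.

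Each enzyme has its own set of bases. UNG removes uracil that was built into DNA at replication or made by deamination of cytosine. SMUG1 also removes uracil and some oxidised pyrimidines. TDG and MBD4 remove thymine or uracil opposite guanine, the mismatch left by deamination at CpG sites, and TDG removes the oxidised forms of methylcytosine made by TET enzymes. OGG1 removes 8-oxoguanine, MUTYH removes the adenine paired with it, and NTHL1 removes oxidised pyrimidines. After the cut, the endonuclease APEX1 nicks the strand, a polymerase fills the gap and a ligase seals it. MNNG (N-methyl-N'-nitro-N-nitrosoguanidine) is a methylating agent, and its N-methylated purines are substrates of MPG and not of the enzymes followed here.

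The starts of the 4 genes with the largest changes in TK6 are shown because their transcripts went different ways in the same cells. Each sequence is RefSeq's, on GRCh38.p14, runs 5′ to 3′ on the gene's own strand, and covers 250 bases before and 50 bases after the gene start. RefSeq entries were held for 7 of the 8 genes, all but SMUG1. Capitals mark matches on either strand to the CCAAT box (CCAAT), the GC box (GGGCGG) and the E-box (CACGTG).
UNG, first entry (chr12:109097347-109097646, plus strand): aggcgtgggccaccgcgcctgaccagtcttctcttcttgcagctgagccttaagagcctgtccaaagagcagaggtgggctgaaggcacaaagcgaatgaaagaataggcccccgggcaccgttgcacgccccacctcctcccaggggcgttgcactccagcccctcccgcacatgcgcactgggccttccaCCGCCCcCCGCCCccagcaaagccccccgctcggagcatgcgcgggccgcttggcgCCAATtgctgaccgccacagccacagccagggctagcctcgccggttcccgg
UNG, second entry (chr12:109097922-109098221, plus strand): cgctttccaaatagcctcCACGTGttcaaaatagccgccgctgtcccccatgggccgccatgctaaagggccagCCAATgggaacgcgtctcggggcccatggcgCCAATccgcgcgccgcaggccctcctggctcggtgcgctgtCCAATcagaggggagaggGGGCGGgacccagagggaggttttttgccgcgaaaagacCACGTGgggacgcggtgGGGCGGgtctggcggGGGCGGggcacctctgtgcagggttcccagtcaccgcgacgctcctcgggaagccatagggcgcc
TDG (chr12:103965622-103965921, plus strand): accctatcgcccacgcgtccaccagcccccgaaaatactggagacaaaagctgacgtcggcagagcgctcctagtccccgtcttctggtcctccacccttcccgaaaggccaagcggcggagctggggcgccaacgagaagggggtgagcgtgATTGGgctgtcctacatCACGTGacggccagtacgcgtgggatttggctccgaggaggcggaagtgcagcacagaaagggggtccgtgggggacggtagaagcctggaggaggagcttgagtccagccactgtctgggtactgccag
NTHL1 (chr16:2047785-2048084, minus strand): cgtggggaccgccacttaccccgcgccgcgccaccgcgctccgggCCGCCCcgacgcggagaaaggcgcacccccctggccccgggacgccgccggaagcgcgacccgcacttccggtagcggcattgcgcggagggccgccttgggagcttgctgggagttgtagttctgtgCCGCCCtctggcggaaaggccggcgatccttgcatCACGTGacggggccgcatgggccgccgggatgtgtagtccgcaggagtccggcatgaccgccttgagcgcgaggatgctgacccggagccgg
MBD4 (chr3:129439899-129440198, minus strand): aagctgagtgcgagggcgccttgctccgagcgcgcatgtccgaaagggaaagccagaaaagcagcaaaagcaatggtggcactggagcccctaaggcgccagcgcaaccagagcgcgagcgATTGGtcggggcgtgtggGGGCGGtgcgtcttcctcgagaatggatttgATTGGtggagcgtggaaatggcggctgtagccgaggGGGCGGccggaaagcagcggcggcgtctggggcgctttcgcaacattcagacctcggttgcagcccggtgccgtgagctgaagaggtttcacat

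The second UNG entry held 3 CCAAT boxes, 3 GC boxes and 2 E-boxes, and the first held 1 CCAAT box and 2 GC boxes. TDG had 1 CCAAT box and 1 E-box. NTHL1 had 2 GC boxes and 1 E-box, and MBD4 had 2 CCAAT boxes and 2 GC boxes. An E2F motif was also searched, in the form TTTNGCGC only, and these 5 windows had 0 matches to that form. Other forms of the E2F motif were not searched, so the 0 does not speak for them. Among 35116 promoters of the same length, 34.6% held a CCAAT box, 45% a GC box, 7.26% an E-box and 1.79% the E2F motif. None of the 4 motifs overlaps another in these windows. The matches are letters only and say nothing of binding.

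Transcripts were measured with Affymetrix arrays in 26 human lymphoblastoid lines, which grow from B cells, after MNNG and untreated, in duplicate, which gave 52 groups of 2 arrays. The lines were MT1, TK6 and a panel of 24 numbered lines of the NIHPDR. TK6 is an established line that lacks the methylguanine repair protein MGMT. MT1 was derived from it, resists alkylating agents and is deficient in mismatch repair. Per the labels all were in mid log phase. The labels used here state no dose, exposure time or killing, so none enters a comparison. The labels do not say whether duplicates were separate cultures. The spread behind the p-values for TK6, MT1 and the differences between lines, which use single arrays, could thus be technical. The p-values of the panel response rest on the spread of changes between lines.

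Of the 52 MNNG arrays, 22 were left out, 21 of the panel and 1 of MT1, because a pair of control probe sets for spiked cre RNA gave differences of -6.45 to -5.19 log2 units there, against 0.082 to 0.83 on the other 82. In the 22, the 15 probe sets were not all alike: those of MUTYH and UNG and TDG 203743_s_at, 3 of 15, lay below every other MNNG array. The share of all probe sets that did so was not counted, so this is not read as a trait of these genes. For UNG the deposited intensities were 16.0 to 37.9 in the 22, against 216 to 526 on the MNNG arrays kept and 86.9 to 564 on untreated arrays. This left 30 MNNG arrays: 1 of MT1, both of TK6, and 1 or 2 for 19 of the panel lines (11 with 1, 8 with 2). Levels below are log2 of intensity plus 16 after quantile normalisation, on which the bottom of the scale is 5, and changes are differences of these levels, MNNG minus untreated. The 5 B-cell markers measured were at median levels of 8.72 to 12.5 in untreated arrays, while 1 of 5 T and NK cell, 1 of 4 myeloid (LYZ, 7.65) and 1 of 4 fibroblast and epithelial markers (COL1A1, 7.01) reached a level of 6.

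In TK6 the glycosylases moved in both directions. UNG, both probe sets of TDG and 1 of SMUG1 rose with MNNG, while NTHL1, 3 of the 4 MBD4 probe sets and MUTYH fell, and the 3 OGG1 probe sets did not pass the test. In all, 9 of 14 probe sets (64.3%) passed an adjusted p of 0.05 in limma (termed called), 4 higher and 5 lower, from 6 genes. Of all 28768 probe sets tested, 36.2% did (17.9% higher and 18.3% lower), and the median change was -0.05 over the 14 and -0.04 over all. With the 22 arrays put back into the fit, none of the 9 passed, and their changes were -1.18 to 1.17. None of the 22 is of TK6, and they enter this test only through the normalisation and the spread shared by all groups. The SE of UNG was 0.93 in that fit, against 0.088.

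UNG (202330_s_at) had levels of 7.83 and 8.01 in MNNG-treated TK6, against 6.84 and 6.95 in untreated TK6. Both treated arrays lay above both untreated ones, and the change was 1.03 ± 0.088 (SE, n = 2 arrays each, 2.04-fold, limma adjusted p = 6.90e-13). TDG 203743_s_at had 9.50 and 9.75 after MNNG, against 8.63 and 8.35 untreated, and TDG 203742_s_at had 8.17 and 7.80, against 6.84 and 6.81. The groups did not overlap for either, and the TDG changes were 1.14 ± 0.13 and 1.16 ± 0.13 (2.20-fold and 2.23-fold, adjusted p = 3.43e-09 and 1.01e-09). Called rises of at least 2-fold made up 4.63% of all probe sets, and 3 of the 14 were among them. SMUG1 218685_s_at rose less, with 7.04 and 7.06 after MNNG, against 6.50 and 6.61 untreated (0.50 ± 0.12, adjusted p = 0.000616). The other SMUG1 probe set, 223684_s_at, had 7.27 and 7.19, against 7.04 and 6.90, and its change of 0.26 ± 0.15 did not pass (adjusted p = 0.175).

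NTHL1 (209731_at), for oxidised pyrimidines, was the member with the largest fall. It had levels of 6.21 and 6.14 in MNNG-treated TK6, against 7.51 and 7.45 in untreated TK6. The treated arrays were near the panel's lowest untreated line (line 14, 6.19, the mean of 6.47 and 5.90). The change was -1.30 ± 0.16 (2.47-fold lower, adjusted p = 4.74e-09). Called falls of at least 2-fold made up 3.78% of all probe sets, and NTHL1 was 1 of the 14 among them. MBD4, the CpG mismatch enzyme, fell by smaller amounts. MBD4 209579_s_at had 8.72 and 8.71, against 9.25 and 9.28 (-0.55 ± 0.089, adjusted p = 2.19e-06). MBD4 209580_s_at had 7.69 and 7.84, against 8.27 and 8.27 (-0.50 ± 0.12, adjusted p = 0.000549). In both, treated and untreated arrays lay apart. MBD4 214047_s_at changed by -0.42 ± 0.16 (adjusted p = 0.0315) and 214048_at by -0.19 ± 0.18 (adjusted p = 0.489). The call for 214047_s_at was lost when 1 of 3 TK6 arrays was left out, with -0.20 without untreated replicate 1, -0.37 without MNNG replicate 1 and -0.48 without MNNG replicate 2. MUTYH (207727_s_at) had 8.41 and 8.39, against 8.64 and 8.90 (-0.37 ± 0.12, adjusted p = 0.0130), and its call was lost without MNNG replicate 1 (-0.38), without MNNG replicate 2 (-0.37) and without untreated replicate 2 (-0.25).

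The 3 OGG1 probe sets changed by 0.04 ± 0.20, 0.0028 ± 0.13 and -0.10 ± 0.12 in TK6, with adjusted p of 0.584 or above. OGG1 205301_s_at had 6.24 and 6.37 after MNNG, against 6.31 and 6.22 untreated, so the arrays overlapped. Treated and untreated TK6 arrays did not overlap for 11 of the 14 probe sets, against 65.5% of all probe sets.

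**Figure D1:**
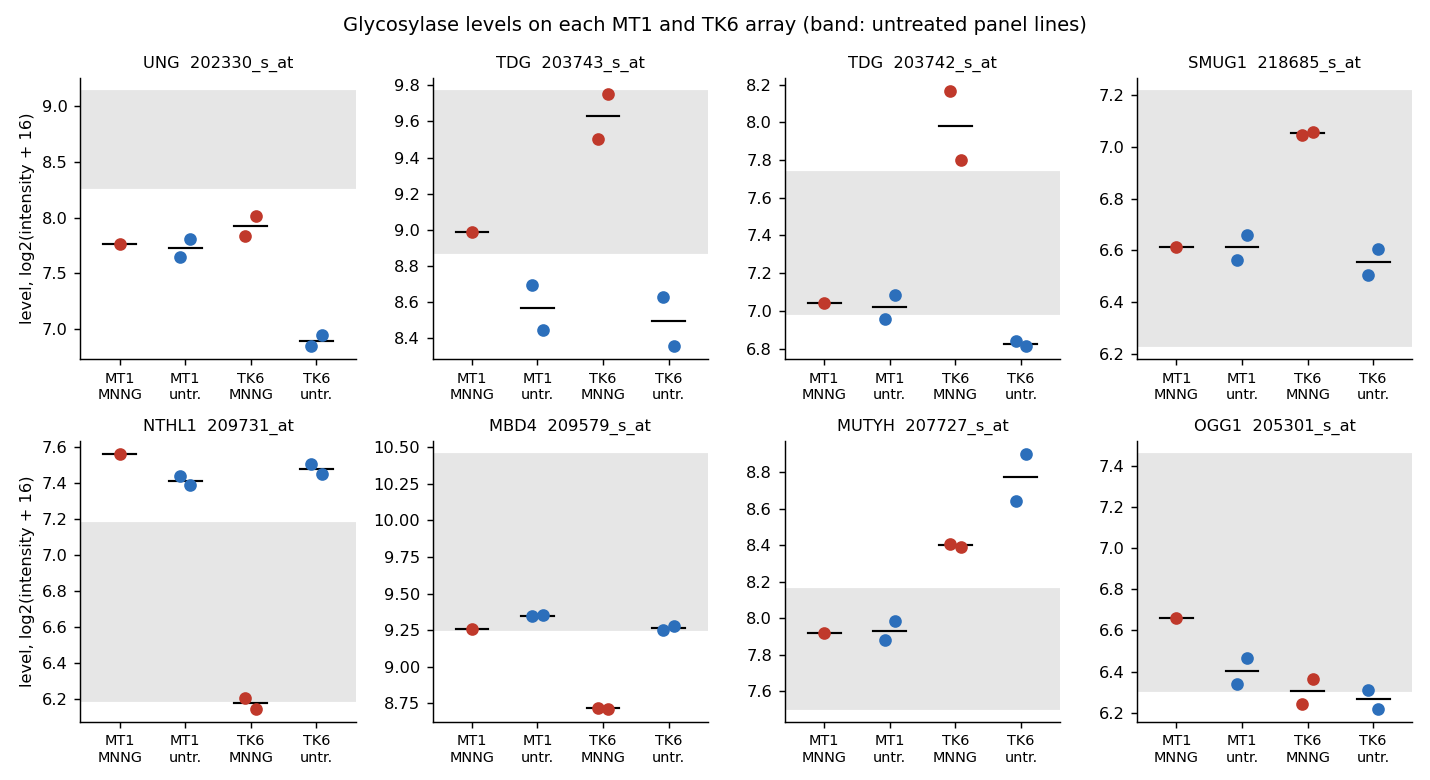
Level, log2(intensity + 16), of 8 glycosylase probe sets on each MT1 and TK6 array after MNNG (red) and untreated (blue); bars are group means, and the grey band spans the 24 untreated panel lines. UNG and TDG lie higher on both MNNG arrays of TK6 than on its untreated ones, NTHL1, MBD4 209579_s_at and MUTYH lie lower, and the single MT1 MNNG array lies within 0.42 of the MT1 untreated mean in each plot.

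S phase genes rose in TK6, where the glycosylases moved both ways. Of 16 replication and S phase entry genes, 15 rose and 0 fell in TK6, with a median change of 0.60 against -0.04 over all probe sets. The mean level of the 16 was 9.58 to 9.60 in MNNG-treated TK6, against 8.92 to 8.96 in untreated TK6. The largest rises were those of the cyclins CCNE2 (1.55 ± 0.16) and CCNE1 (1.23 ± 0.15), the replication factor GINS1 (1.01 ± 0.17) and the helicase subunit MCM5 (0.99 ± 0.18). UNG is known to be transcribed most from late G1 into S phase. The 3 plasma cell markers SDC1, PRDM1 and TNFRSF17 rose too, with a mean level of 8.27 to 8.35 after MNNG, against 6.29 to 6.36 untreated. Of the 5 B-cell markers, 2 rose (MS4A1 and PAX5) and 3 fell (CD79A, CD79B and CD22), with a mean level of 9.56 to 9.65, against 9.87 to 9.94. Of the 5 T and NK cell markers 2 fell (NKG7 and GNLY), with a mean level of 6.23 to 6.39 after MNNG, against 6.65 to 6.76 untreated, and of 2 fibroblast and epithelial markers tested COL1A2 fell (-0.39 ± 0.15). The part of these shifts in the glycosylase changes was not tested, and an altered share of cells in a cycle stage cannot be told apart from altered RNA per cell.

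MT1 kept 1 MNNG array, whose spread is assumed to be that of the other groups. None of the 14 probe sets passed in MT1 in limma (smallest adjusted p 0.181, 1 of 14 at an unadjusted p under 0.05), and 2.94% of all probe sets did (1.51% higher and 1.44% lower). The median change was 0.09 over the 14 and 0.0048 over all. UNG was at 7.77 in MNNG-treated MT1, between the 7.65 and 7.81 of untreated MT1 (0.04 ± 0.11). NTHL1 was at 7.56, against 7.44 and 7.39 untreated (0.15 ± 0.19). The MT1 MNNG array lay outside its 2 untreated arrays in 9 of 14 probe sets, against 70.5% of all. The largest MT1 change was that of TDG 203743_s_at, at 8.99 against 8.69 and 8.45 untreated (0.42 ± 0.16, adjusted p = 0.181). The other TDG probe set was at 7.04, against 6.96 and 7.08 untreated (0.02 ± 0.16).

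The difference in response between MT1 and TK6 was tested directly, as MT1 minus TK6, and 6 of 14 probe sets from 4 genes passed, 3 each way, against 18.8% of all probe sets (9.35% higher and 9.45% lower). NTHL1 differed by 1.45 ± 0.25 (adjusted p = 1.82e-05), UNG by -0.99 ± 0.14 (adjusted p = 5.26e-07), TDG 203742_s_at by -1.14 ± 0.21 (adjusted p = 4.77e-05) and TDG 203743_s_at by -0.72 ± 0.21 (adjusted p = 0.0125). MBD4 209580_s_at differed by 0.78 ± 0.18 (adjusted p = 0.00153) and MBD4 209579_s_at by 0.46 ± 0.14 (adjusted p = 0.0163). The difference subtracts the TK6 change, and no member passed in MT1. The enzymes that rose in TK6 therefore had the negative differences and those that fell the positive ones, which adds no separate support. SMUG1 218685_s_at (-0.50 ± 0.18, adjusted p = 0.0553), MBD4 214047_s_at (0.62 ± 0.25, adjusted p = 0.0807) and MUTYH (0.36 ± 0.19, adjusted p = 0.214) did not pass. The call for TDG 203743_s_at was lost without MT1 untreated replicate 1 (-0.59), TK6 MNNG replicate 2 (-0.59) or TK6 untreated replicate 2 (-0.58). On values as deposited the calls of NTHL1 (1.60), MBD4 209579_s_at (0.51) and both TDG probe sets were lost, and with median centring those of TDG 203743_s_at (-0.94) and both MBD4 probe sets (0.60 and 0.27). When TK6 and MT1 were fitted without the panel, TDG 203743_s_at (-0.72, adjusted p = 0.107) and MBD4 209579_s_at (0.46, adjusted p = 0.0887) did not pass. With the 22 arrays put back, which gives MT1 its other MNNG array, none of the 6 passed, NTHL1 differed by 0.30, UNG by -1.96 and MBD4 209579_s_at by -1.36. This comparison uses the same TK6 arrays as the TK6 response.

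In the panel, changes were small, and the called ones were rises. Of 14 probe sets 5 rose and 0 fell across the 19 lines, where 41.8% of all probe sets passed (22.7% higher and 19.2% lower), and the median change was 0.06 over the 14 and 0.02 over all. The 5 came from 5 genes, the oxidised-base enzymes OGG1, NTHL1 and MUTYH and the mismatch enzymes TDG and MBD4. OGG1 205301_s_at had a lowest, median and highest level of 6.45, 6.92 and 7.61 after MNNG, against 6.30, 6.73 and 7.46 untreated, and was higher in 17 of 19 lines (0.18 ± 0.040, adjusted p = 0.000573). NTHL1 had 6.40, 6.99 and 7.24, against 6.19, 6.70 and 7.18, and was higher in 17 lines (0.16 ± 0.040, adjusted p = 0.00275). TDG 203743_s_at had 9.24, 9.60 and 9.91, against 8.87, 9.47 and 9.77, and was higher in 16 lines (0.16 ± 0.044, adjusted p = 0.00596). The treated and untreated ranges overlapped for each of these, and the differences showed within lines.

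MBD4 214047_s_at was higher in 16 lines (0.14 ± 0.029, adjusted p = 0.000476) and MUTYH in 15 (0.11 ± 0.029, adjusted p = 0.00447). None of the 14 moved the same way in all 19 lines, against 3.63% of all probe sets. The largest called change, that of OGG1, is a 1.14-fold difference. UNG changed by 0.05 ± 0.031 (adjusted p = 0.190), higher in 14 of 19 lines. The 2 SMUG1 probe sets changed by 0.06 ± 0.032 and 0.07 ± 0.037 (adjusted p = 0.118 and 0.156). The other probe sets of the called genes did not pass, namely OGG1 205760_s_at (0.05) and 215272_at (0.02), TDG 203742_s_at (0.03) and MBD4 209579_s_at (-0.04), 209580_s_at (0.03) and 214048_at (0.03), so no gene with several probe sets was called in more than 1. These 5 calls rest on the scaling: with arrays centred on their medians none passed, and the values were -0.0072 for MUTYH, -0.0023 for MBD4 214047_s_at, 0.0066 for TDG 203743_s_at, 0.08 for NTHL1 and 0.11 for OGG1 205301_s_at. Among all called probe sets, 54.2% were higher, against 26.1% with median centring and 74.4% on values as deposited. With the 22 arrays put back, MUTYH (-0.68), NTHL1 (-0.36) and TDG 203743_s_at (-1.53) were called lower, and OGG1 205301_s_at and MBD4 214047_s_at did not pass. In the 11 lines that kept 1 MNNG array, that array was set against the mean of both untreated replicates. With a block for replicate number, in a fit on single arrays, each of the 5 kept its call. The part of a shift between replicates in these changes was not tested further. None of the 5 passed without replicate 1, where fewer lines entered the fit. The values there were 0.16 for OGG1, 0.15 for NTHL1, 0.18 for TDG, 0.16 for MBD4 and 0.09 for MUTYH. The SE of NTHL1 was 0.098 in that fit, against 0.040. Without replicate 2, where replicate 1 met replicate 1 only, the calls of OGG1 (0.17), TDG (0.07) and MBD4 (0.04) were lost.

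Markers of cell type and cycle also moved in the panel. The 3 plasma cell markers rose (median 0.35, against 0.02 over all probe sets), led by PRDM1 (0.57 ± 0.059) and TNFRSF17 (0.35 ± 0.038), and their mean level had a lowest, median and highest of 7.01, 8.52 and 9.42 on MNNG arrays, against 6.72, 8.21 and 9.07 on untreated arrays. Of the 5 B-cell markers 2 fell, CD22 (-0.34 ± 0.061) and MS4A1 (-0.07 ± 0.022), of the 5 T and NK cell markers CD2 and GNLY rose by 0.09 each, and of 4 myeloid markers 1 rose and 1 fell. Of the 16 S phase genes 5 rose and 3 fell (median 0.05), with CCNE2 at 0.27 and MCM3 at -0.25. The part of these shifts in the 5 rises was not tested.

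In limma's F test of response between lines 0 of 14 probe sets passed (smallest adjusted p 0.278, TDG 203742_s_at, with 2 of 14 at an unadjusted p under 0.05), against 3.65% of all. With arrays centred on their medians TDG 203742_s_at passed (adjusted p = 0.0263). Changes by line ran from -0.27 to 0.37 for NTHL1, from -0.24 to 0.39 for UNG and from -0.18 to 0.80 for TDG 203743_s_at, where line 20 was highest. The TK6 change lay above those of all 19 panel lines in 4 probe sets (UNG, both TDG and SMUG1 218685_s_at) and below them in 6 (MUTYH, NTHL1 and the 4 of MBD4), against 39.1% of all probe sets outside the panel's range. The MT1 change lay outside it in 1, MBD4 209580_s_at, against 10.8% of all.

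**Figure D2:**
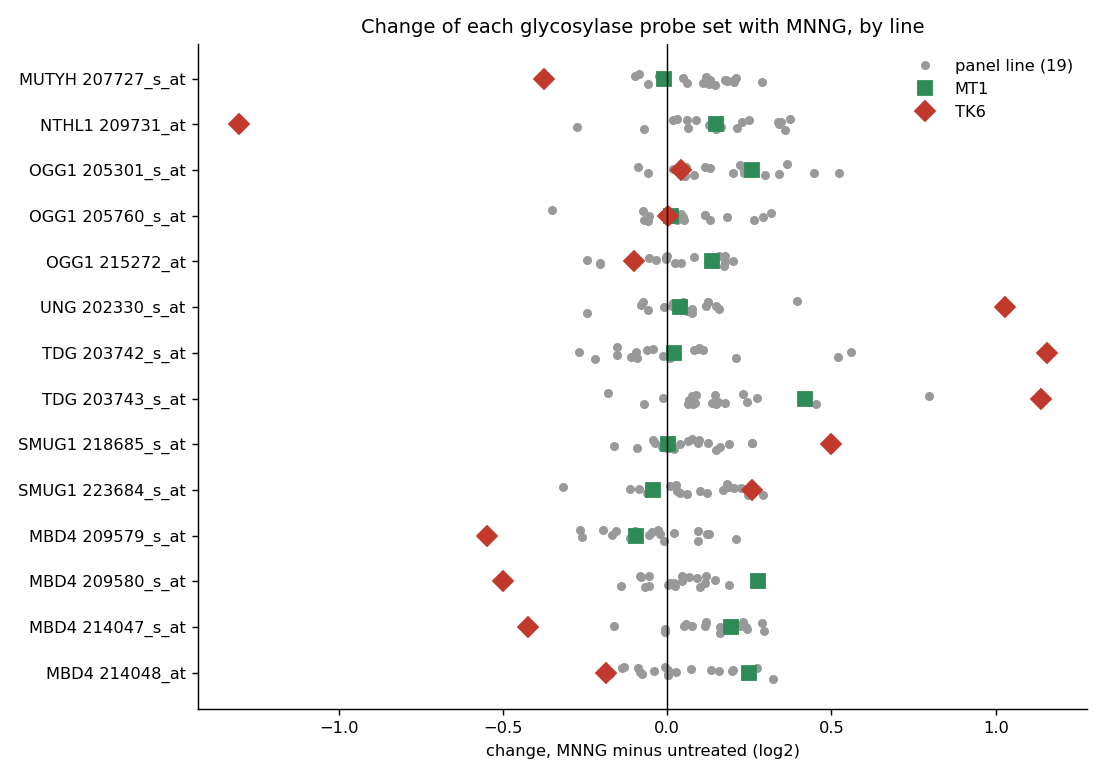
Change with MNNG (log2, MNNG minus untreated) of the 14 glycosylase probe sets in each of 19 panel lines (grey points), MT1 (green squares) and TK6 (red diamonds). TK6 lies outside the panel lines for UNG, TDG, SMUG1 218685_s_at, NTHL1, MUTYH and MBD4, and MT1 lies outside for 1 MBD4 probe set.

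Before treatment, UNG was higher and MUTYH lower in MT1 than in TK6. UNG was at 7.65 and 7.81 in untreated MT1, against 6.84 and 6.95 in untreated TK6 (0.83 ± 0.088, 1.78-fold, adjusted p = 4.90e-10). MUTYH was at 7.88 and 7.98 in MT1, against 8.64 and 8.90 in TK6 (-0.84 ± 0.12, 1.79-fold lower, adjusted p = 6.26e-07). For both genes the arrays of the lines lay apart. They were 2 of 14 probe sets, 1 each way, where 20.5% of all passed (11.3% higher and 9.27% lower). The arrays of MT1 and TK6 did not overlap in 10 of 14 probe sets, against 50.7% of all. The other 12 did not pass, with values from -0.18 to 0.26. With the 22 arrays put back neither UNG (0.77) nor MUTYH (-0.86) passed, each with an adjusted p of 1. None of the 22 is untreated, and they enter this comparison only through the normalisation and the spread shared by all groups. The SE in that fit were 0.93 for UNG and 0.63 for MUTYH. The S phase genes were also higher in untreated MT1, with 5 of 16 called higher and 0 lower and a mean level of 9.09 to 9.17, against 8.92 to 8.96 in TK6, and their part in the UNG difference was not tested. Of the 5 B-cell markers 3 were lower in untreated MT1 and 0 higher, with a mean level of 8.36 to 8.41, against 9.87 to 9.94 in TK6. Of the 5 T and NK cell markers 3 were lower and 0 higher, with a mean level of 5.83 to 5.86 in MT1, against 6.65 to 6.76 in TK6. Of the 3 plasma cell markers PRDM1 was higher (0.47 ± 0.10) and SDC1 lower (-0.55 ± 0.14). The part of these in the 2 differences was not tested.

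Before treatment, TK6 lay outside the range of the 24 panel lines in 8 of 14 probe sets and MT1 in 5, against 31.9% and 32.1% of all probe sets, so the MT1 share was near that of all probe sets. Untreated UNG was at 7.73 in MT1 and 6.90 in TK6, below every panel line (8.26 to 9.14, median 8.58). TDG 203743_s_at was at 8.57 in MT1 and 8.49 in TK6, also below all panel lines (8.87 to 9.77). NTHL1 was at 7.41 in MT1 and 7.48 in TK6, above every panel line (6.19 to 7.18). MUTYH in MT1 lay at the panel's median (7.93 in both), while in TK6, at 8.77, it was above the panel (7.50 to 8.16). After MNNG, UNG in TK6 (7.83 and 8.01) was still below the lowest untreated panel line, while TDG 203742_s_at in TK6 (8.17 and 7.80) was above the highest (7.74). Among panel lines after MNNG, the lowest UNG level was 8.32. The highest level of TDG 203742_s_at there was 8.02, above the treated TK6 mean of 7.98. TDG 203743_s_at in TK6 (9.50 and 9.75) was then within the panel's untreated range (8.87 to 9.77).

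**Figure D3:**
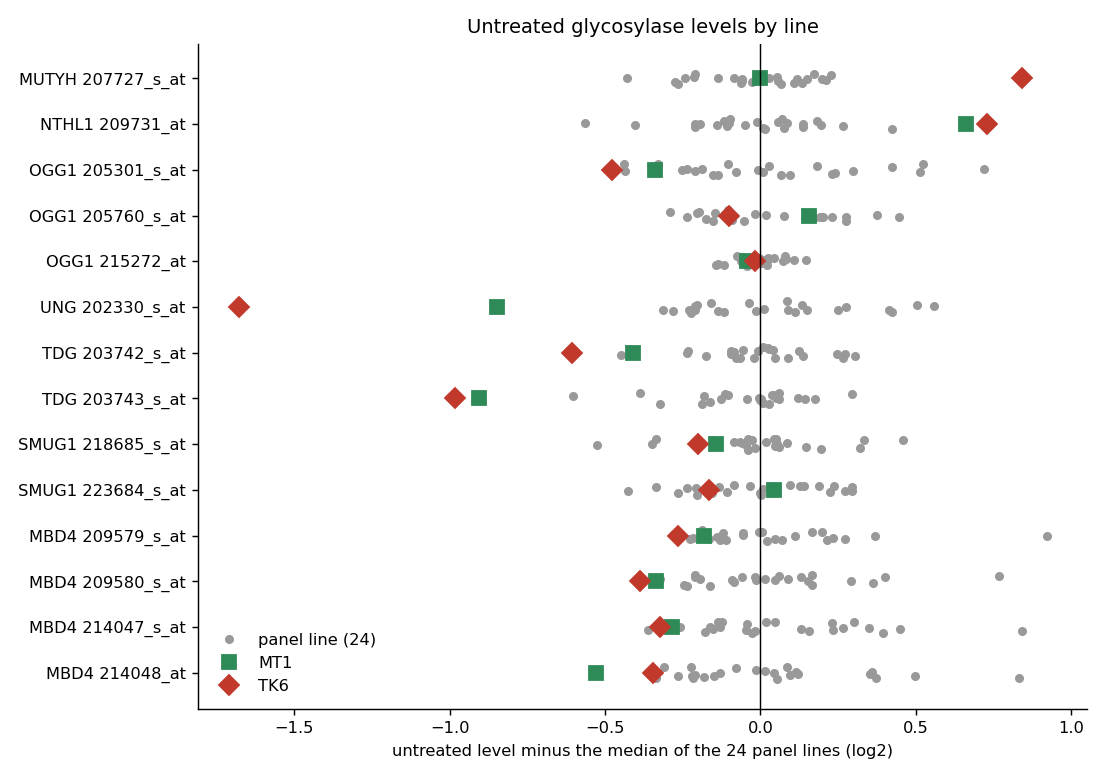
Untreated level of each glycosylase probe set minus the median of the 24 panel lines (log2), for the panel lines (grey points), MT1 (green squares) and TK6 (red diamonds). UNG lies at -0.85 in MT1 and -1.68 in TK6, below all panel lines, and NTHL1 lies above all panel lines in both.

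Among the 24 untreated panel lines, 13 of 14 probe sets differed in limma's F test, against 61.1% of all. OGG1 215272_at was the exception (adjusted p = 0.792), at a median level of 5.56, where the scale ends at 5. The span between the lowest and the highest line was 1.22-fold to 2.30-fold. UNG ran from 8.26 in line 14 to 9.14 in line 1 (median 8.58, adjusted p = 2.19e-13), NTHL1 from 6.19 in line 14 to 7.18 in line 1 (median 6.75, adjusted p = 0.000364), and OGG1 205301_s_at from 6.30 in line 12 to 7.46 in line 1 (median 6.74, adjusted p = 3.31e-05). Line 1 was thus the highest for these 3 probe sets, while OGG1 205760_s_at was highest in line 2 (6.96) and 215272_at in line 19 (5.70). The duplicates of line 14 were apart for NTHL1 (6.47 and 5.90) and OGG1 205301_s_at (6.98 and 6.03). On untreated arrays the lowest deposited intensity of both probe sets was 16.0, the bottom of the deposited scale. MUTYH ran from 7.50 in line 12 to 8.16 in line 16 (median 7.93) and SMUG1 218685_s_at from 6.23 in line 13 to 7.22 in line 24 (median 6.76). The 2 TDG probe sets were both lowest in line 20, at 6.98 and 8.87, with medians of 7.43 and 9.47. Between neighbours in the order of lines, the gap passed the SD between duplicates (0.082 to 0.19) in at most 4 of 23 gaps of any probe set, so most neighbouring lines were not told apart. On values as deposited, 5 of the 13 calls were lost (NTHL1, OGG1 205301_s_at and 205760_s_at, TDG 203742_s_at and SMUG1 223684_s_at), and with the 22 arrays put back each of the 13 was. The 22 hold no untreated array, so they enter this test only through the normalisation and the spread shared by all groups.

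MBD4 had 1 line well above the others. Line 20 was highest in all 4 MBD4 probe sets, at 10.45 on 209579_s_at against a median of 9.53 and a next line 0.55 lower, and at 9.42, 9.64 and 8.30 on the others against medians of 8.65, 8.80 and 7.47. The F test gave an adjusted p of 5.19e-13 for 209579_s_at. The same line had the lowest TDG, so the 2 enzymes for thymine opposite guanine were at opposite ends there. The 4 MBD4 probe sets rose and fell together across lines (Pearson r 0.79 to 0.94, n = 24 lines, as a description). The 2 TDG probe sets did as well (r = 0.74). The 2 SMUG1 probe sets did not (r = -0.09), and those of OGG1 did weakly (0.15 to 0.35), so levels of these 2 genes depend on the probe set read.

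**Figure D4:**
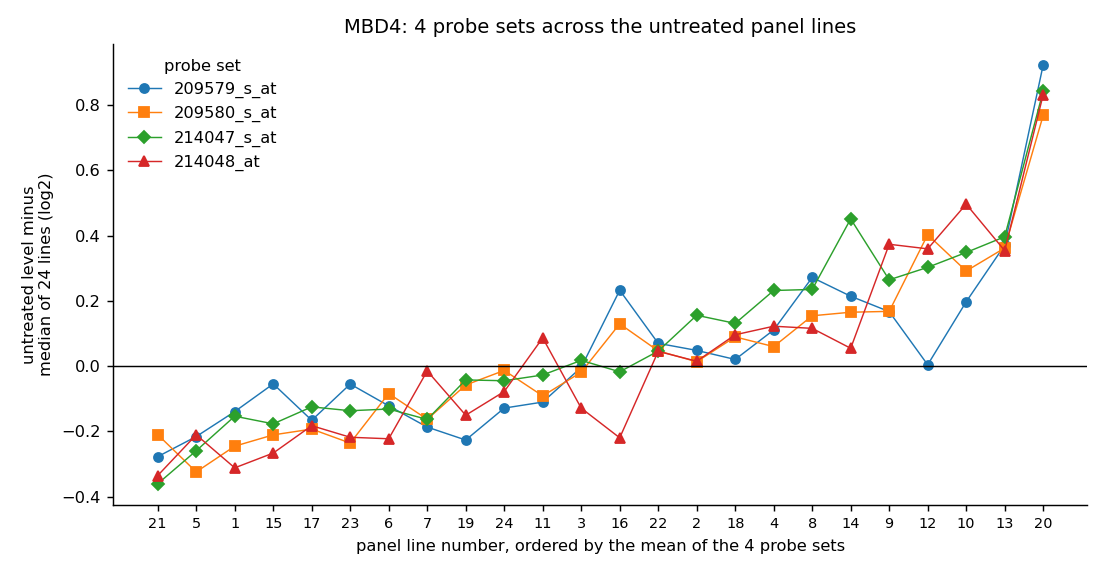
Untreated level of the 4 MBD4 probe sets minus each one's median over 24 panel lines (log2), with lines ordered by the mean of the 4. Line 20 is highest on all 4, and on 209579_s_at the next line is 0.55 lower.

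Across the 24 untreated lines UNG, OGG1 205301_s_at, NTHL1 and MUTYH had higher levels where the mean of the 16 S phase genes was higher, with r of 0.79, 0.79, 0.61 and 0.59, as a description over points that share array normalisation. For TDG r was -0.12 and -0.19, and for MBD4 it ran from -0.25 to 0.01. OGG1 205760_s_at and 215272_at had r of 0.30 and -0.01, and SMUG1 218685_s_at and 223684_s_at had -0.09 and 0.42. UNG and NTHL1 varied together (r = 0.62), as did UNG and OGG1 205301_s_at (r = 0.57). By the highest Pearson r over the 24 lines among 15237 genes, UNG was most like GEMIN5 (0.85), GAR1 (0.81) and the helicase subunit MCM3 (0.81). NTHL1 was most like SLC29A1 (0.83), TUBB (0.81) and PAXX (0.80). OGG1 205301_s_at was most like MAGOHB (0.86), CNOT11 (0.86) and SEPHS1 (0.86), and TDG 203743_s_at like ICE1 (0.87), SLC25A44 (0.85) and UBA3 (0.85). MBD4 was most like CREB3L2 (0.78), LOC100507006 (0.76) and MTDH (0.76), MUTYH like DGKZ (0.72), SART1 (0.72) and TMEM250 (0.71), and SMUG1 223684_s_at like MRPS15 (0.79), PRSS16 (0.78) and BLOC1S1 (0.77).

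The enzymes that act after a glycosylase also moved both ways in TK6. Of 15 measured of 16, 5 rose and 4 fell (median -0.08, against -0.04 over all). The sliding clamp PCNA (1.13 ± 0.11), the end-cleaning enzyme APTX (1.13 ± 0.10), the flap endonuclease FEN1 (1.07 ± 0.058) and the nuclease APLF (0.65 ± 0.14) had the largest called changes, with adjusted p of 0.000156 or below. APLF was at a median level of 5.56 in untreated arrays, near the bottom of the scale. The falls were those of PARP2 (-0.64), PARP1 (-0.54), TDP1 (-0.44) and HMGB1 (-0.39). In MT1, FEN1 alone of the 15 passed (0.47 ± 0.071, adjusted p = 6.51e-05). The MT1 minus TK6 difference passed in 8 of 15, 4 each way, with APTX at -0.80, PCNA at -0.80, APLF at -0.62 and FEN1 at -0.60. Before treatment 5 of 15 were higher in MT1 than in TK6 and 0 lower, led by FEN1 (0.67 ± 0.058), POLB (0.38 ± 0.080), PCNA (0.35 ± 0.11) and PARP2 (0.32 ± 0.11). In the panel 7 of 15 rose and 2 fell (median 0.07, against 0.02 over all), led by APTX (0.28 ± 0.036), PARP1 (-0.28 ± 0.025), LIG3 (0.27 ± 0.043) and PCNA (0.25 ± 0.041).

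Of the glycosylases outside the set, MPG, NEIL2 and NEIL3, 0 of 3 passed in TK6 and 0 of 3 in MT1 in limma (1 and 0 at an unadjusted p under 0.05). MPG, the enzyme for methylated purines, changed by -0.48 ± 0.22 in TK6 (adjusted p = 0.0934), -0.08 ± 0.27 in MT1 and -0.05 ± 0.033 in the panel (adjusted p = 0.286). In the panel NEIL3 rose by 0.13 ± 0.044 (adjusted p = 0.0206) and NEIL2 fell by 0.12 on the log2 scale (adjusted p = 0.00204). Of 6 measured of 7 nucleotide pool and base-modifying enzymes, SAMHD1, which breaks down deoxynucleotides, rose by 1.97 ± 0.20 in TK6 (adjusted p = 6.78e-11) and was the 1 called there, with DUT, which keeps uracil out of DNA, at -0.05. SAMHD1 also rose in the panel (0.34 ± 0.045), as did NUDT1 (0.20 ± 0.051), which clears oxidised guanine nucleotides, and TET3 fell (-0.11 ± 0.039). None of the 6 passed in MT1 in limma, and 0 had an unadjusted p under 0.05, and the MT1 minus TK6 difference passed for SAMHD1 (-1.51 ± 0.32).

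**Figure D5:**
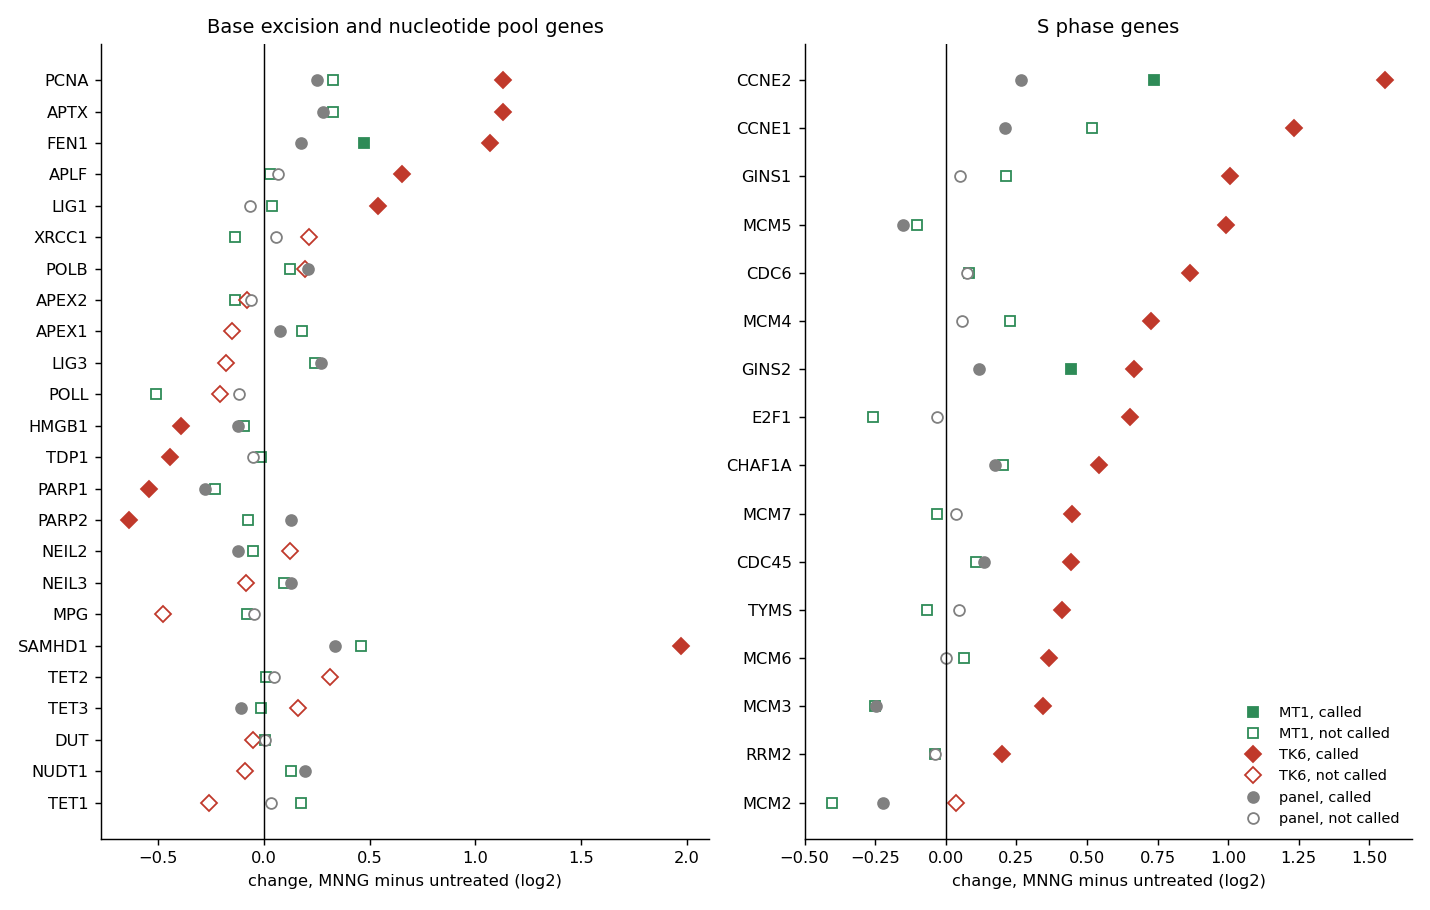
Change with MNNG (log2, MNNG minus untreated) of base excision, other glycosylase and nucleotide pool genes (left) and S phase genes (right) in MT1 (squares), TK6 (diamonds) and the mean of 19 panel lines (circles); filled marks passed an adjusted p of 0.05. In TK6, 15 of 16 S phase genes passed, all higher, against 2 in MT1.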

How the data were processed

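The authors deposited PLIER intensities on a linear scale, from 16.0 to 65535, per the submitters' processing notes and the values, with array medians of 16.0 to 64.4. The PLIER version, the dose and the time are not stated in the labels. The number of arrays limits the precision.

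The 22 MNNG arrays named in the report were left out by the cre pair. Values plus a pseudocount of 16 were log2 transformed and quantile normalised over 82 arrays with all 54675 probe sets. Of these, 41097 had 1 symbol in the dated platform annotation, 1801 several and 11777 none. Dropping the dimmest 30% by mean level left 28768, each tested alone, with no averaging over a gene. In lists, a gene was read from its brightest probe set.

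All p-values of probe sets come from limma 3.58.1 in R 4.3.3 (moderated tests with a trend, Benjamini-Hochberg adjustment over all 28768, called at an adjusted p of 0.05). For the panel, the fit took the mean of each line's duplicates, with a block for each of 19 lines. TK6, MT1, their difference and the F tests were contrasts of group means on single arrays, with 1 spread for all groups. A group with 1 array is assumed to vary like the others. Errors after ± are standard errors.

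The members and lists were chosen with earlier results of these data known. Named genes were every member probe set, per list up to 4 called genes by size of change, and the 3 genes most like each member by Pearson r; PARP2, PARP1, TDP1 and HMGB1 in TK6, MPG and DUT were added after their values were seen. Same-numbered arrays of 9 lines had deviations that correlated at -0.61 to 0.12, and 2 of 9 were over 0.1. No pairing by replicate number showed in these 9, and lines with fewer arrays kept could not be checked this way. Alternatives covered the arrays left out, pseudocount, scaling, filter, 1 probe set a gene, trend, line and replicate blocks, the TK6 and MT1 arrays alone and leaving out arrays or lines. The code was tested on simulated data. Symbols are those of the platform annotation, promoters come from a RefSeq table of GRCh38.p14, and figures from matplotlib 3.10.9.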

Additional observations from a re-analysis of the deposited data

Results flagged for a closer look

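The response to MNNG differed between MT1 and TK6, by limma's test of the difference itself, for 6 glycosylase probe sets, given as MT1 minus TK6. UNG 202330_s_at had -0.99, with a change of 0.04 in MT1 and 1.03 in TK6. TDG 203742_s_at had -1.14 (0.02 in MT1 and 1.16 in TK6) and TDG 203743_s_at -0.72 (0.42 in MT1 and 1.14 in TK6). NTHL1 209731_at had 1.45 (0.15 in MT1 and -1.30 in TK6), MBD4 209580_s_at 0.78 (0.28 in MT1 and -0.50 in TK6) and MBD4 209579_s_at 0.46 (-0.09 in MT1 and -0.55 in TK6). MT1 had 1 MNNG array in each of these. The mean change of the 16 S phase genes was 0.09 in MT1, 0.66 in TK6 and -0.11 to 0.24 in the 19 panel lines, and its part in these differences was not tested.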

How the results depend on the processing

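For TK6, the calls of UNG, both TDG probe sets, NTHL1, SMUG1 218685_s_at and MBD4 209579_s_at and 209580_s_at were lost in 1 alternative, the fit with no array left out, where UNG was at 0.96 and NTHL1 at -1.18. MUTYH and MBD4 214047_s_at also lost theirs on values as deposited (-0.33 and -0.37) and in fits of TK6 and MT1 or TK6 alone. For MT1 minus TK6, all 6 calls were lost in the fit with no array left out (NTHL1 0.30, UNG -1.96, TDG -1.78 and -2.35, MBD4 209580_s_at 1.05), and UNG kept its call in the others run. Both untreated MT1 minus TK6 calls were lost in that fit alone (UNG 0.77 and MUTYH -0.86). On values as deposited NTHL1 (1.60), both TDG probe sets (-1.05 and -0.70) and MBD4 209579_s_at (0.51) lost theirs, with median centring TDG 203743_s_at (-0.94) and both MBD4 probe sets (0.27 and 0.60) did, and in the fit of TK6 and MT1 alone TDG 203743_s_at (-0.72) and MBD4 209579_s_at (0.46) did. Median centring called TDG 203742_s_at for response between lines (adjusted p = 0.0263). In the panel, with no line block none of the 5 calls passed.

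Directions turned as follows. With no array left out, the panel changes were -0.68 for MUTYH, -0.36 for NTHL1, -1.24 for UNG, -0.42 for TDG 203742_s_at, -1.53 for TDG 203743_s_at and -0.38 for SMUG1 218685_s_at, and MT1 minus TK6 was -1.36 for MBD4 209579_s_at. With median centring the panel gave -0.0072 for MUTYH and -0.0023 for MBD4 214047_s_at.

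Counts of all called probe sets moved over 1.5 times. They were 12031 for the panel, 10405 for TK6, 847 for MT1, 5408 for MT1 minus TK6, 5909 for untreated MT1 minus TK6, 17590 between untreated lines and 1049 for response between lines. With no array left out they were 19454, 990, 96, 235, 307, 2650 and 613, in that order. With 1 probe set a gene, so fewer features, the first 6 were 5892, 5697, 493, 3415, 3494 and 9421. As deposited, TK6 had 5790, MT1 72, their difference 1607, untreated 2180 and response between lines 78. Median centring gave MT1 270, the difference 2987, untreated 3889 and response between lines 543. The fit of TK6 and MT1 alone gave MT1 4, the difference 2842 and untreated 3595, and no line block gave the panel 5558. The cause was not tested. The median change of all probe sets was 0.02 for the panel, -0.04 for TK6, 0.0048 for MT1 and 0.02 for their difference. As deposited it was 0.13, 0.12, 0.33 and 0.20 in that order, and MT1 had -0.12 with median centring. The higher share of TK6 calls was 49.5%, against 60.2% as deposited, and of MT1 calls 51.2%, against 84.7% as deposited and 11.1% with median centring.

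Leaving out arrays or lines gave 2767 to 12848 in the panel (2767 without replicate 1), 8428 to 8779 in TK6, 353 to 532 in MT1 (353 without MT1 untreated replicate 1, 532 without MT1 untreated replicate 2), 4500 to 4970 for MT1 minus TK6, 4556 to 4810 for untreated MT1 minus TK6, 16934 to 17941 between untreated lines, and 489 (without line 4) to 1623 (without line 16) for response between lines.

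No pairing by replicate number showed in the 9 lines checked, and the other lines could not be checked this way. With a replicate block the counts were 12037, 10986, 1399, 6034, 6414, 19036 and 1375 in the order above, each higher than without the block. In that fit SMUG1 218685_s_at passed in the panel (0.07) and for MT1 minus TK6 (-0.53), as did MBD4 214047_s_at for MT1 minus TK6 (0.69). For MT1 minus TK6, SMUG1 218685_s_at also passed with the 50% filter (adjusted p = 0.0387) and with no trend (0.0446), and MBD4 214047_s_at without TK6 untreated replicate 2 (0.84). SMUG1 223684_s_at passed in the panel without replicate 2 (0.12) and without line 17 (0.09). In TK6 same-numbered deviations correlated at -0.21. A crossed block, added after seeing the data, called 10338 in a fit of TK6 alone, against 8648 without it. Other alternatives (pseudocounts, filters, no trend) kept every count within 1.5 times. Probe sets near level 5, such as OGG1 215272_at and SMUG1 234708_at, allow no measured fall. NTHL1 and OGG1 205301_s_at also had deposited intensities down to 16.0, the bottom of that scale, on untreated and on kept MNNG arrays.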
